A study of Homo sapiens with 8 samples.

Results

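The m1A landscape of control 5637 cells was taken as the set of regions that were called enriched in both control samples. N1-methyladenosine (m1A) is a methyl mark on the base-pairing face of adenosine, and 5637 is an established human bladder cancer line. A region was a stretch where peaks of both control lists overlapped by at least 1 base. Of 28510 peaks in the 8 deposited lists of the series, the control lists gave 3823 such regions, 2829 in mRNA and 994 in long noncoding RNA (lncRNA). The mRNA regions were assigned by the authors to 2361 genes and the lncRNA regions to 995 transcripts.

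The study profiled 5637 cells labelled WT (titled NC, the control) and 5637 cells with stable knockdown of TRMT61A, with 2 samples in each group. Each sample gave an input library and a library enriched with an m1A antibody, both from total RNA depleted of ribosomal RNA. The labels do not say what the control cells carried, whether the knockdown cells were 1 clone, or whether replicates were separate cultures. The spread between them may therefore be technical.

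As background, m1A is abundant in tRNA, where the complex of TRMT6 and TRMT61A methylates an adenosine of the T-loop that lies in the sequence GUUCRA. The same enzymes can modify mRNA stem-loops that resemble the T-loop, and TRMT61B and TRMT10C act in mitochondria. ALKBH1, ALKBH3 and FTO can remove the mark, and YTH-domain proteins have been described as its readers. In mammalian mRNA, antibody-based maps have placed many m1A peaks near the start of the transcript.

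The control inputs held 30046283 and 42177927 counts over mRNA genes and 1727826 and 2304288 over lncRNA transcripts. Levels are given in CPM, a count scaled to the total of its table, and 1 CPM stands for about 30 to 42 reads in the mRNA table and about 2 reads in the lncRNA table. Of 13 urothelial and epithelial markers, 10 reached 1 CPM, among them KRT5, KRT8, KRT18, KRT19 and TP63, while the uroplakins UPK1B, UPK2 and UPK3A were at or near 0. Their summed input CPM was 3537 and 4185. None of 5 immune markers reached 1 CPM, 1 of 4 endothelial markers did, and 3 of 7 fibroblast markers did, namely COL1A1, LUM and VIM, with summed CPM of 1.16 and 0.806, 1.83 and 2.63, and 55.9 and 50.6.

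To show what lies at the strongest start regions, the sequence around the gene start is given for 6 mRNA regions whose peaks in both lists hold an annotated start and the 30 bases from it. The first 3 had the highest folds among such regions near a tRNA gene, and the other 3 the highest among those farther away; these were chosen after their values were seen. The lines give the 100 bases before the start in lower case and the first 30 transcribed bases in capitals, on the gene's strand, from RefSeq on GRCh38.p14.
SHF, chr15:45201087-45201216, minus strand: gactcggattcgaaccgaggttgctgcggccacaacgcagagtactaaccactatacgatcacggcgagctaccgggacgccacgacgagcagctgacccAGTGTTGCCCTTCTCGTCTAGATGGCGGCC
ILF2, chr1:153670964-153671093, minus strand: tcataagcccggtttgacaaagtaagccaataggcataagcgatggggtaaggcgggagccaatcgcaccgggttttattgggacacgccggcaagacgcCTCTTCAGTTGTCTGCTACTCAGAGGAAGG
NDUFS7, chr19:1383807-1383936, plus strand: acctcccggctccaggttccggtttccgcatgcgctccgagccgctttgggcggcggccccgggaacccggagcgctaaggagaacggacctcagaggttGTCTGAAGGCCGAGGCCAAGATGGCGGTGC
FBXW4, chr10:101695141-101695270, minus strand: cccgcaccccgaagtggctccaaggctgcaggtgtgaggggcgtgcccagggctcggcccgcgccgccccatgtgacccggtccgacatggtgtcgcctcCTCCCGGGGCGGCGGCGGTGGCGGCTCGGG
NAA15, chr4:139301405-139301534, plus strand: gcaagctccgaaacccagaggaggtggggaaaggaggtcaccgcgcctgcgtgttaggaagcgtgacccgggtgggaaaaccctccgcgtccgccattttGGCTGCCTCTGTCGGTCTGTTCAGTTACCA
POLR2F, chr22:37953563-37953692, plus strand: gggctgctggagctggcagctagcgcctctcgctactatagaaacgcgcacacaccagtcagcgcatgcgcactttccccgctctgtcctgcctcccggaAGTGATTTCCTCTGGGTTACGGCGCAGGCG

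The SHF window holds 66 bases of the histidine tRNA gene TRH-GTG1-9, and the letters TCGAAC, which read GTTCGA on the other strand, begin 91 bases before the SHF start. Fold enrichment at this region, the authors' ratio of enriched over input reads, was 70834 in control list 1 and 69875 in control list 2. The input gave SHF 6.76 and 8.46 CPM. At FBXW4, a component of a ubiquitin ligase family, folds were 236 and 180, and 90% of the first 30 bases were G or C. NAA15, a subunit of the N-terminal acetyltransferase NatA, had folds of 100 and 94.2, and POLR2F, an RNA polymerase subunit, 85.4 and 105. These 3 windows held no tRNA gene base and neither orientation of GTTCGA.

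The regions were the stronger part of each control list. Control list 1 held 6701 mRNA peaks and control list 2 held 4319, of which 42.3% and 65.6% fell in a region of both lists. The lncRNA lists held 2588 and 1696 peaks, of which 38.5% and 58.8% did. Peaks in the other list had a median fold of 9.74 in list 1 and 8.25 in list 2, against 5.14 and 5.47 for mRNA peaks in 1 list only. Among list 1 mRNA peaks, 13.0% of those with a fold from 2 to below 4 recurred in list 2, 64.3% of those from 8 to below 16, and 93.0% of those of at least 64. In list 2 the recurrence at the same folds was 38.0%, 78.2% and 94.7%.

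Bounds and folds were close between the samples. The peaks had the same start and end in both lists in 63.2% of mRNA regions and 42.7% of lncRNA regions. Folds were within 2 times of each other in 82.8% and 84.8% of regions. Across regions, which share the 2 control samples, log2 folds had a Pearson r of 0.82 over 2829 mRNA regions and 0.91 over 994 lncRNA regions, with Spearman rho of 0.67 and 0.75. Folds were higher in list 1 in 60.8% and 61.5% of regions. The median region spanned 283 bases in mRNA and 358 in lncRNA.

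**Figure D1:**
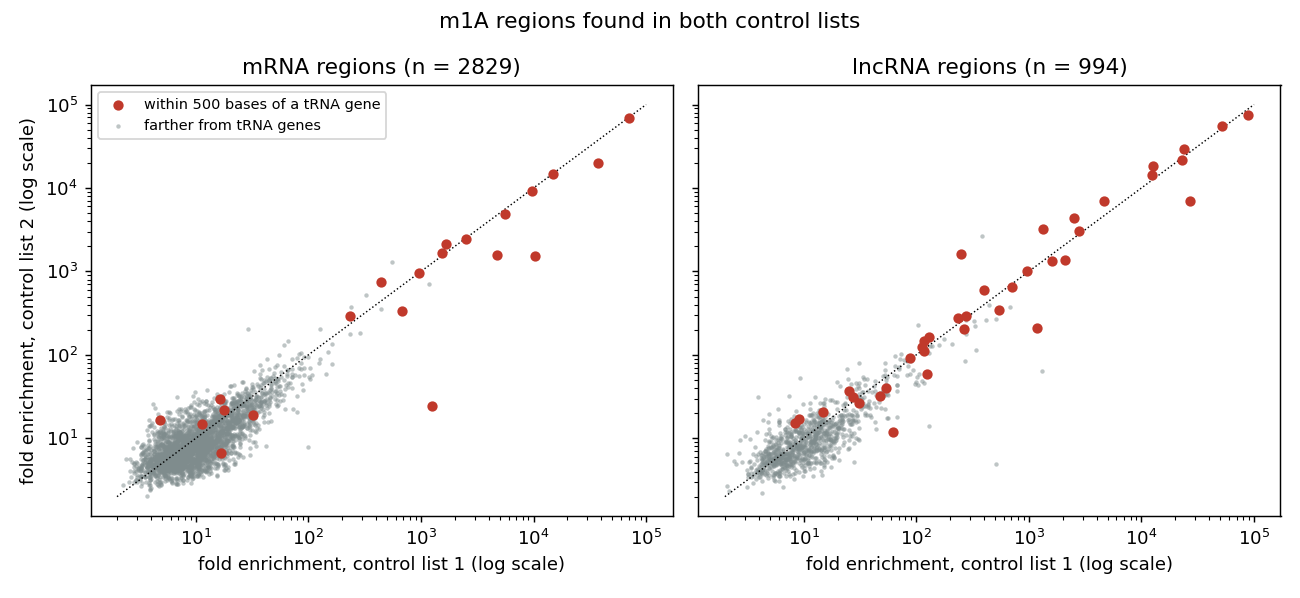
Fold enrichment in control list 1 (x axis) and control list 2 (y axis), both as log-scale ratios, for 2829 mRNA and 994 lncRNA regions, with 1 point per region and equality as a dotted line. All regions with a fold over 1000 in both lists are among the points within 500 bases of a tRNA gene.

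All regions with a fold over 1000 in both lists lay beside tRNA genes, in both RNA classes. Of the mRNA regions, 10 had a fold over 1000 in both lists, and all 10 lay within 500 bases of a tRNA gene, against 0.742% of all mRNA regions. In lncRNA, all 13 regions over 1000 did, against 3.72% of all lncRNA regions. Of regions with a fold over 100 in both lists, 14 of 25 in mRNA (56%) and 26 of 45 in lncRNA (57.8%) lay this close, and the rest did not. Among regions whose lower fold was at most 100, the share was 0.250% in mRNA and 1.16% in lncRNA. In total 58 regions lay this close, and they touched or neighboured 69 of the 443 nuclear tRNA genes in the RefSeq table. The lists assign such peaks to a gene or lncRNA, and reads of a tRNA or its precursor cannot be told apart from those of the assigned transcript. The reads behind each peak were not used here, and a very high fold may rest on few input reads.

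After SHF, the mRNA regions of highest fold carried the names TRIM41, HMGN4, ERCC1, ILF2, NDUFS7, ALOXE3, KCTD2, TIA1 and POLR3E. TRIM41, a RING-finger ubiquitin ligase, had folds of 37392 and 19679 at a region 629 bases before its nearest listed start. This region lay 32 bases from the valine tRNA gene TRV-CAC1-5 and over the miRNA gene MIR4638. HMGN4, a nucleosome-binding protein, had folds of 14896 and 14786 at a region 279 bases from another valine tRNA gene. ERCC1, a nuclease subunit of nucleotide excision repair, had 9763 and 9159, with its region 49 bases from the selenocysteine tRNA gene TRU-TCA1-1. ILF2, a protein that regulates transcription and RNA processing, had 5562 and 4918 near the initiator methionine tRNA gene TRX-CAT1-1. The complex I subunit gene NDUFS7 had 2498 and 2452 over the asparagine tRNA gene TRN-GTT2-6. TIA1, an RNA-binding protein of stress granules, differed most between the lists among the 10 highest mRNA regions, with 10359 and 1541. Outside these 10, the region near a tRNA gene at ELF1, an ETS-family transcription factor, had 1256 and 24.5; it was picked out after its values were seen. POLR3E, a subunit of the polymerase that transcribes tRNA genes, had 1536 and 1647 at a region 154 bases from a leucine tRNA gene. AGBL5, a tubulin deglutamylase gene, had the highest lower fold among mRNA regions farther than 500 bases from a tRNA gene, 1183 and 714, with a tRNA gene 619 bases away; it was picked out after its values were seen. ALOXE3, a lipoxygenase gene of skin, had folds of 1654 and 2143 while its input was 0.932 and 0.877 CPM. This region lay 114 bases before the nearest listed ALOXE3 start.

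The lncRNA regions of highest fold carried the same feature. METTL26 had folds of 88118 and 74879 at a region 426 bases from the glycine tRNA gene TRG-CCC2-2, and AL592295.3 had 52297 and 54574 over the aspartate tRNA gene TRD-GTC2-5. AJ003147.2 was named for 3 of the 10 highest regions, each beside a different tRNA gene (TRP-TGG3-5, TRK-CTT4-1 and TRP-AGG2-8). The others were AC051619.7, AJ003147.1, FCGR2A, LINC00324 and AC124068.2. Only 17 and 25 input reads were counted for LINC00324, 6 and 5 for AC051619.7, 0 and 1 for AJ003147.1, and 4 and 6 for METTL26. The input level of these lncRNAs is therefore barely measured.

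Regions at other small RNA genes mostly had lower folds. Of mRNA regions, 17 overlapped a miRNA gene and 1 a small nucleolar RNA gene, and of lncRNA regions 4 and 6 did. The highest apart from TRIM41 was MTRNR2L8, a nuclear copy that resembles mitochondrial ribosomal RNA, with folds of 557 and 1313 over MIR4485. At HSP90B1, the endoplasmic reticulum chaperone, the region over MIR3652 had folds of 12.5 and 7.07. CDC37, an HSP90 co-chaperone, had 20.6 and 6.69 over MIR1181, and the acetyltransferase gene EP300 had 10.3 and 6.28 over MIR1281. H19, an imprinted lncRNA, had 15.5 and 15.2 over MIR675. The small nucleolar RNA host gene SNHG7 had 30.2 and 31.1 over SNORA17A and SNORA17B. At TMEM107 the region over SNORD118 had 52.5 and 28.6.

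Many mRNA regions sat at the start of their gene. A start was listed for the gene of 2333 mRNA regions, and 56.5% of these, 1318 regions in 1315 genes, lay within 100 genomic bases of the nearest listed start. The start itself was inside 42.8% of regions. A further 12.9% lay more than 100 and up to 5000 bases inside the gene, 27.2% farther inside, and 3.43% more than 100 bases before the start. Distances are genomic and include introns, and the lists give no strand, so 2 genes that share a promoter cannot be told apart. Peaks seen in 1 list only were within 100 bases of a start in 35.2% of cases in list 1 and 36.7% in list 2. Regions at the start had median folds of 10.6 and 9.05, against 8.42 and 7.21 for the 1015 regions away from it. They were also longer, with a median of 312 bases against 219. Distance was taken from the nearest edge of a region, so a longer region comes within 100 bases of a start more easily.

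**Figure D2:**
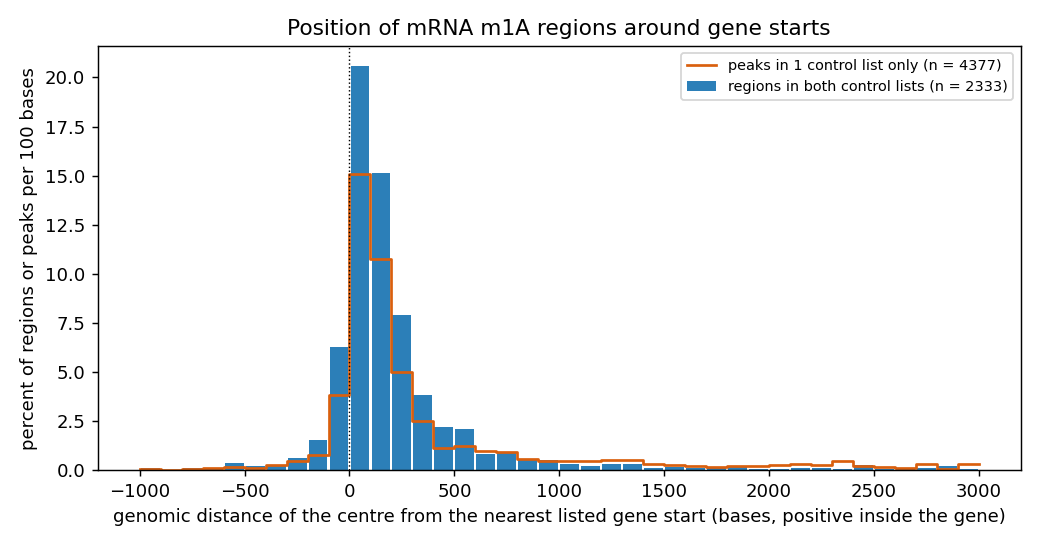
Percent of 2333 mRNA regions (bars) and of 4377 mRNA peaks found in 1 control list only (line) per 100 genomic bases of distance between their centre and the nearest listed gene start. Both distributions have their highest bin just inside the start, and more of the regions than of the peaks in 1 list only fall there.

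Genes with a start region had more G and C around the start. The 300 bases from 250 before the start to 50 after it had a median GC share of 67.7% in 1291 expressed genes with a start region. It was 67.0% in 590 genes with regions only away from the start, and 63.2% in 5692 expressed genes without a peak in either list. Expressed genes were put into 5 groups of equal size by this GC share. From the lowest to the highest group, 6.61, 9.96, 14.5, 16.3 and 17.3% had a start region. Median input CPM per gene lay between 31.8 and 40.7 in all 5 groups. Among genes at or above the median CPM a start region was found in 10.4% of the lowest GC group and 24.2% of the highest. Below the median CPM these shares were 3.42% and 10%. A region only away from the start was found in 5.46, 4.91, 4.55, 6.56 and 8.06% of genes in the same order of groups.

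**Figure D3:**
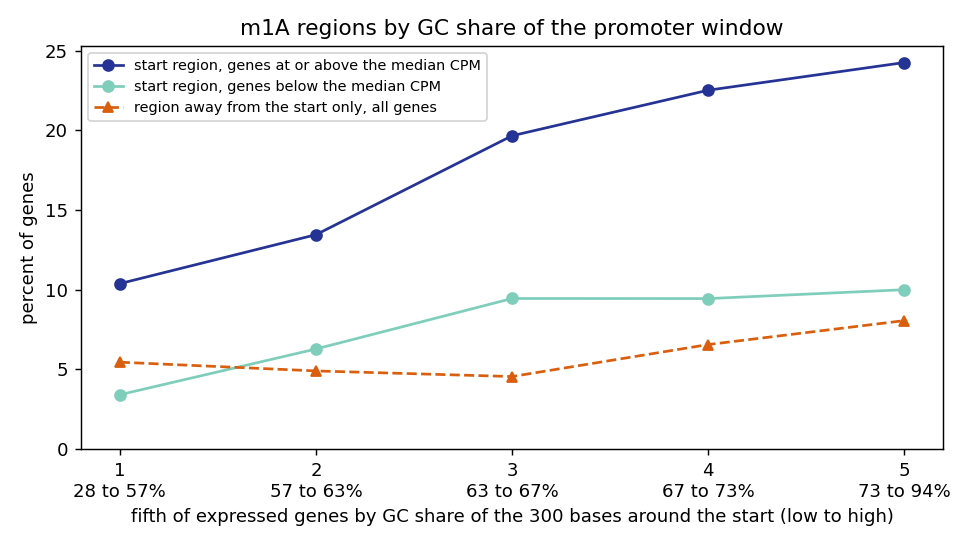
Percent of expressed mRNA genes with an m1A region within 100 bases of a listed start, for genes at or above and below the median input CPM, and percent with a region only away from the start, in 5 equal groups by the GC share of the 300-base promoter window. Start regions were listed for 24.2% of genes at or above the median CPM in the highest GC group and for 10.4% in the lowest.

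Of the DNA forms of the T-loop sequence, only GTTCGA was searched, and its shares in the groups of expressed genes lay close together. GTTCGA in either orientation was found in the promoter window of 3.95% of the 1291 genes with a start region. It was found in 4.41% of the 590 genes with regions only away from the start, 3.92% of the 5692 genes without a peak and 4.0% of all 9987 expressed genes with a listed start. These are counts of genes with a match in any of their windows, and 2.30% of all 35116 windows in the table held it. The window holds only 50 transcribed bases.

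Of 12156 expressed mRNA genes, those with a mean of at least 1 CPM over both inputs, 2272 carried a region of both control lists (18.7%). A peak in at least 1 control list was listed for 42.7%. Another 67 genes with a region were under 1 CPM and 22 had no row in the count table, which accounts for all 2361. The sources used here do not say that peaks and counts were assigned with the same annotation, and where they were not, a gene with a region can be low in or missing from the count table. Genes with a region had a median input of 58.1 and 60.3 CPM per gene in control inputs 1 and 2. Genes with a peak in 1 list only had 33.7 and 35.3 CPM, and genes without a peak had 29.1 and 29.4 CPM. These are reads per gene, not divided by transcript length, so that a long mRNA collects more reads at the same number of molecules. The difference in median log2 CPM per gene, genes with a region minus all other expressed genes, was 0.92 in input 1 and 0.95 in input 2. It was 0.59 among genes of at least 5 CPM and 2.01 with no filter on expression.

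The expressed mRNA genes were also put into 10 groups of equal size by input CPM. The share with a region was higher in each of the 5 upper groups than in each of the 5 lower ones. It was 5.10% in group 1, the lowest, 17.1% in group 5, 23.4% in group 6 and 29.2% in group 10, the highest. Start regions were found in 2.06% of genes in group 1 and 16.9% in group 10, and regions away from the start in 2.06% and 10.3%. Peaks in 1 list only followed no such order, with 16.2% in group 1, 27.4% in group 4 and 17.3% in group 10. In group 10, 355 genes had a region of both lists and 210 a peak in 1 list only.

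**Figure D4:**
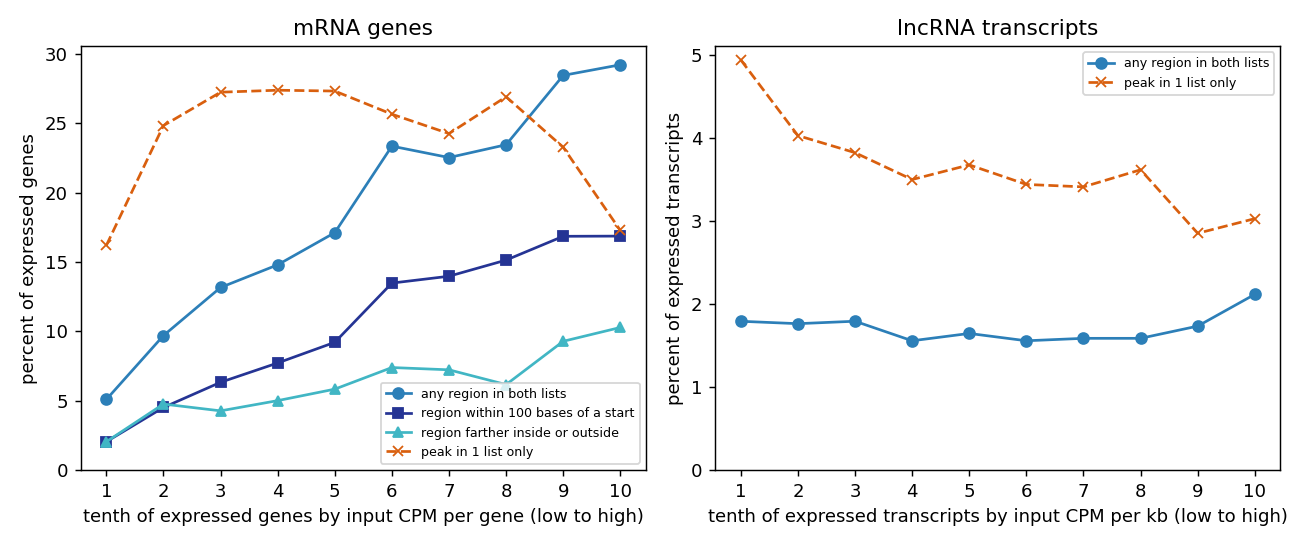
Percent of expressed mRNA genes (left, 10 groups by input CPM per gene) and of expressed lncRNA transcripts (right, 10 groups by input CPM per kb) with a region in both control lists or a peak in 1 list only. The mRNA share with a region is 5.10% in the lowest group and 29.2% in the highest, while the lncRNA share stays between 1.56% and 2.12%.

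Among the 10 genes with a region and the most input reads were genes of the cytoskeleton, of vesicle traffic and of the cell membrane. FLNA, which crosslinks actin filaments, had 1448 and 1799 CPM per gene and folds of 14.3 and 10.6. CLTC, the clathrin heavy chain, had 1442 and 1462 CPM, with folds of 11.6 and 8.51 at a region that held its start. CANX, a chaperone of the endoplasmic reticulum, had 1451 and 1421 CPM, with folds of 19.6 and 20.8, also at the start. ITGA6, the laminin-binding integrin of hemidesmosomes, had 1388 and 1260 CPM and folds of 11.7 and 8.88. The amino acid transporter gene SLC7A5 had 1279 and 1369 CPM and folds of 11.4 and 9.80. The remaining 5 were AHNAK, DYNC1H1, HUWE1, SYNE2 and SON, with the lower fold of their strongest region between 5.37 and 21.1.

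Among the genes with the most reads and no peak in either control list, 5 of 10 were encoded by the mitochondrial genome. MT-CO1, a cytochrome oxidase subunit, had 9500 and 8215 CPM, and MT-ND4, MT-ND1, MT-CO3 and MT-ND2 followed. No mitochondrial peak was listed in either class, and whether the mitochondrial genome was searched for peaks is not known here. EEF1A1, the elongation factor that brings tRNA to the ribosome, had 3454 and 3458 CPM without a peak, and the actins ACTB and ACTG1 had 2558 and 2867, and 2385 and 2540 CPM. PRKDC, a DNA repair kinase, had 2397 and 2274 CPM, and the collagen gene COL12A1 had 2072 and 2072 CPM. The nuclear genes among these 10 show that a very high input could stand without a listed peak. EEF1A1 and the actins have near-identical pseudogene copies, and how the authors treated reads that match several copies is not given in the sources used here.

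Most genes had 1 region. With each region counted for the gene of its strongest list 1 peak, 2026 genes had 1 region, 239 had 2 and 92 had 3 or more. MYH14, a nonmuscle myosin heavy chain, had 10 regions with lower folds of 6.88 to 27.7, none at a listed start, and an input of only 18.6 and 30.3 CPM. MYH9, its paralogue, had 7 regions at 688 and 696 CPM, and RRBP1, a ribosome-binding protein of the endoplasmic reticulum, had 7 at 105 CPM in both inputs. The translation initiation factor EIF3A had 6, and ANP32E, EIF5B, GOLIM4 and HDGFL2 had 5 each. Another 20 genes had 4 regions, among them PARP1, DNMT1, LIG1 and HNRNPM. DLG5 was also among these 20, although its row in the count table held 0.0666 and 0.0474 CPM.

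Gene families differed in how many of their expressed members had a region, and each share is set beside the 18.7% of all expressed genes. Families were drawn by gene symbol. Chromatin regulators had the highest shares by this count, but their order against other families changed with the list or limit used. The SWI/SNF and ARID genes were those with SMARC and ARID symbols, which include subunits of nucleosome remodelling complexes and other genes. Of 21 expressed, 11 had a region (52.4%), and the share was lower at a score of at least 100, 47.6% beside 14.0% of all expressed genes. By list 1 alone 66.7% of the SWI/SNF and ARID genes had a peak, beside 37.3% of all expressed genes, and by list 2 alone 57.1%, beside 26.4%. Laminins also had 66.7% by list 1 alone, and collagens had 57.9% by list 2 alone. ARID1B, a subunit that marks the BAF complex, had folds of 26.1 and 18.9, SMARCC2 19.3 and 19.7, and SMARCA4, the ATPase, 13.3 and 8.52. SMARCD1 had no peak at 109 and 121 CPM.

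Of 34 lysine methyltransferase and demethylase genes, 16 had a region (47.1%), 11 of them with a region at the start. At a score of at least 100 in both lists the share was 32.4%, beside 14.0% of all expressed genes. At that score it was below the 40% of MCM genes, 36.8% of collagens and 33.3% of laminins. KDM1A, a histone demethylase, had folds of 19.8 and 16.3, and KMT2C, a methyltransferase of enhancers, 4.22 and 13.8. SETD5 had no peak at 1168 and 1143 CPM. Median input of these chromatin families was 86.0 to 110 CPM per gene.

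Kinesins, the motors of microtubules, had a region in 12 of 30 genes (40.0%), of which 7 had a region away from the start. At a score of at least 100 in both lists the kinesin share was 23.3%, beside 14.0% of all expressed genes. KIF1C had folds of 13.3 and 7.51, and KIF5B, the conventional kinesin heavy chain, had no peak at 401 and 413 CPM. Laminins had 4 of 9 (44.4%), namely LAMB1, LAMA5, LAMA3 and LAMA1, with folds of 9.37 and 9.27 in LAMB1. Their partner chain LAMC1 had no peak at 832 and 792 CPM. Collagens had 7 of 19 (36.8%), and COL4A2, a basement membrane collagen, had the highest input of these with folds of 23.0 and 16.8 at its start. Of the genes drawn by the MCM symbol, 4 of 10 had a region. Among them were MCM2 and MCM3 of the replicative helicase and MCM3AP, an mRNA export factor. In the input groups that hold the family medians, the share of all expressed genes was 29.2% for laminins and 28.5% for MCM genes. It was 23.5% for kinesins and 17.1% for collagens. Counts in families of 9 or 10 genes say little about a difference from these shares.

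Larger families with shares above 18.7% included the ubiquitin enzymes, with 44 of 149 (29.5%). TRIM44 had folds of 53.9 and 51.4 there. RAB GTPases, which direct vesicle traffic, had 14 of 49 (28.6%), 9 of them with a region at the start. The regions of the other 5 lay in genes with no start listed. RAB11A had folds of 16.7 and 6.72 at a region 323 bases from a glutamine tRNA gene. Genes with EIF and EEF symbols, called translation factors here, had 18 of 65 (27.7%), with EIF3B at 25.2 and 24.6. They include the kinase gene EIF2AK2. Their median input was 124 and 115 CPM per gene, and 28.5% of all expressed genes in that input group had a region. Protein phosphatases had 15 of 56 (26.8%), DEAD and DEAH box helicases 12 of 47 (25.5%), and MAP kinases 9 of 36 (25%). For the families of this paragraph other than translation factors, the input groups that hold their medians had 17.1% to 23.4%. MAP2K1, the kinase upstream of ERK, had folds of 71.8 and 40.1, and DHX36, a helicase of G-quadruplexes, 61.7 and 22.4.

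Several families had low shares or none. Of 82 expressed cytosolic ribosomal protein genes none had a region, and 1 had a peak in 1 list only, at a median of 288 and 284 CPM per gene. RPL32, RPL7A and RPLP0 each had more than 1000 CPM without a peak. All 13 mitochondrially encoded genes and all 9 chaperonin subunits were without a peak in either list. For the mitochondrial genes this holds no information if their genome was not searched for peaks. Chemokines and interleukins had 0 of 17 at a median of 17.1 and 18.9 CPM. Interferon-stimulated genes had 0 of 14 at 6.47 and 10.2 CPM. In the input groups that hold these medians, 9.70% to 14.8% of all expressed genes had a region. A count of 0 in families this small therefore says little. Histones had 3 of 63 (4.76%), and these were the variant or linker genes H2AFY, H2AFV and H1FX, with folds of 33.4 and 20.0 at H2AFV. Zinc finger genes had 42 of 467 (8.99%) at a median of 19.7 and 20.2 CPM, and TMEM genes 15 of 168 (8.93%) at 19.8 and 20.8 CPM. Mitochondrial ribosomal proteins had 10 of 77 (13.0%) and nuclear genes of oxidative phosphorylation 13 of 97 (13.4%).

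Families of RNA splicing, epithelial structure and cell cycle had shares that fell on either side of the all-gene share, depending on the list or limit used. The hnRNP genes had 5 of 22 (22.7%), with HNRNPL at 52.5 and 51.7, while HNRNPU and HNRNPA1 had no peak above 1000 CPM. SR splicing factors had 3 of 12, keratins 3 of 14, integrins 3 of 15, desmosome genes 2 of 10, proteasome subunits 7 of 45 and cyclins with their kinases 6 of 37. Basal keratin KRT5 had a region with folds of 5.36 and 3.59 at 411 and 510 CPM, while KRT8, KRT18 and KRT19 had none at 561 to 1148 CPM. KRT14 has near-identical copies, so its region and its input of 0.732 and 1.99 CPM are uncertain. Aminoacyl-tRNA synthetases had 6 of 35. The tRNA modification enzymes had 9 of 53 (17.0%), a share that was below that of all expressed genes under each alternative run. The pseudouridine synthase gene PUS1 had folds of 31.5 and 26.1.

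**Figure D5:**
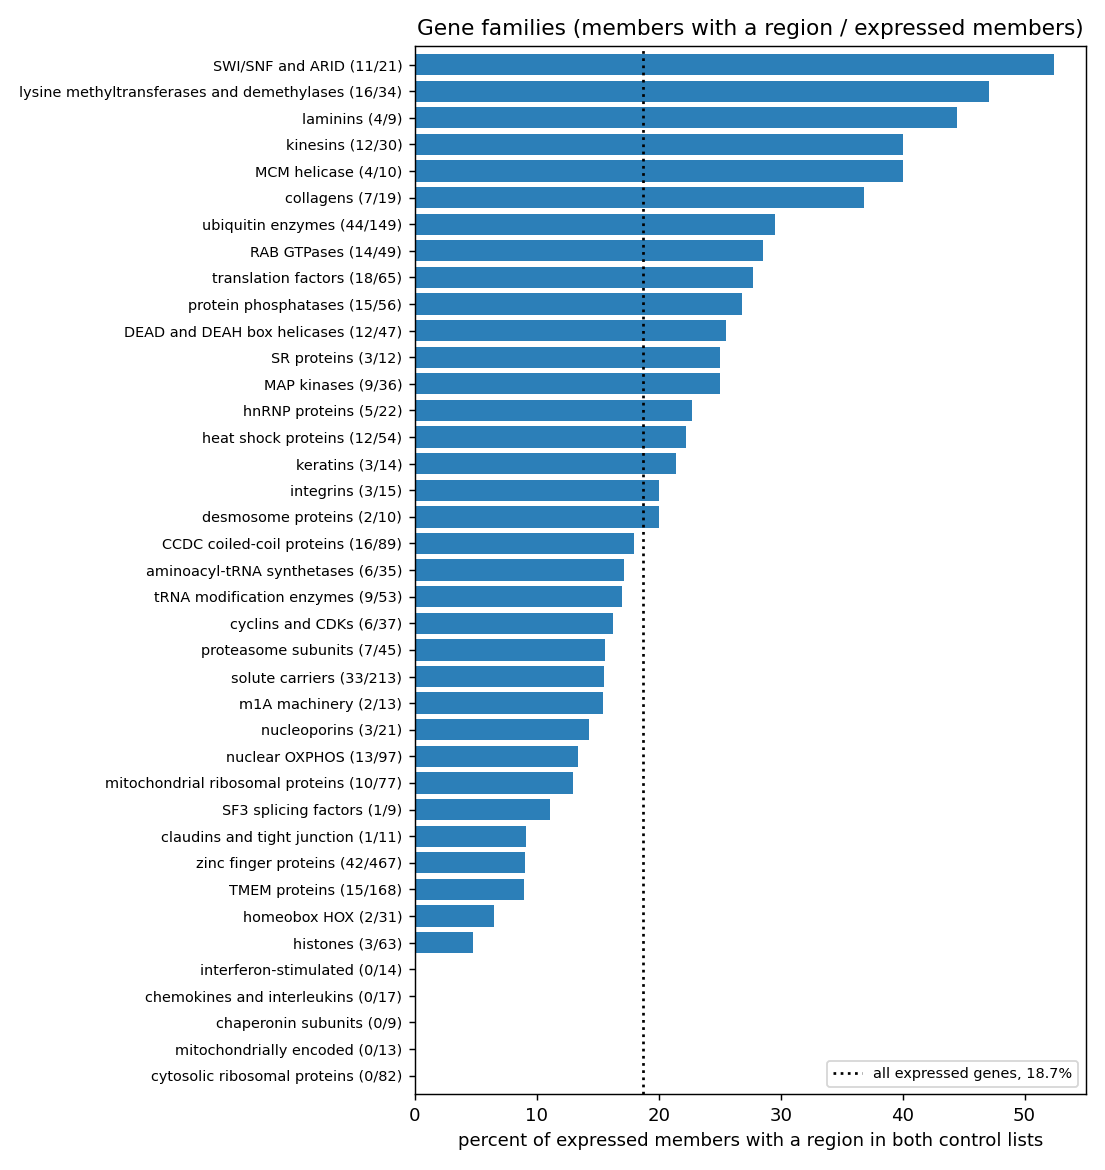
Percent of expressed members with a region in both control lists for 39 gene families with at least 5 expressed members, with the counts beside each name and 18.7% of all expressed genes as a dotted line. SWI/SNF and ARID genes are at the top with 52.4%, and 5 families, including the 82 cytosolic ribosomal protein genes, are at 0.

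Genes that write, remove or read m1A were all expressed, and 2 of 13 had a region (15.4%, beside 18.7% of all expressed genes). This share fell on either side of the all-gene share, depending on the list or limit used. YTHDF3, a cytoplasmic YTH-domain reader, had folds of 16.4 and 7.87 at 230 and 216 CPM, and the region overlapped peaks in both knockdown lists. YTHDC1, the nuclear YTH-domain protein, had folds of 13.1 and 11.5 and no knockdown peak over the region. Its input was 3.13 and 10.6 CPM, far apart for replicates. HSD17B10, a partner of TRMT10C, had a peak of fold 4.23 in list 1 only, and the demethylase gene FTO one of 5.79 in list 1 only. TRMT61A had 19.6 and 14.7 CPM and no peak in either control list. TRMT6, its partner, had 62.6 and 56.6 CPM without a peak, and TRMT61B, TRMT10C, RRP8, ALKBH1, ALKBH3, YTHDF1 and YTHDF2 had none at 21.8 to 149 CPM.

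In lncRNA, 583 of 33961 transcripts with at least 1 CPM carried a region (1.72%), and 5.35% had a peak in at least 1 control list. Another 155 were under 1 CPM and 257 had no row in the count table, so that the share leaves out 257 of the 995 transcripts with a region. Each peak names 1 transcript, and a gene can have many. The median level was 8.78 and 9.33 CPM per kb of transcript with a region. It was 7.43 and 7.88 CPM per kb with a peak in 1 list only, and 8.95 and 9.18 CPM per kb without a peak. Transcripts with a region were longer, with a median of 985 bases against 715 without a peak. The difference in median log2 CPM per kb, transcripts with a region minus all others, was -0.019 in input 1 and 0.033 in input 2, so it had no steady sign. Without division by length it averaged 0.44. Median input counts were 17 and 24 reads with a region and 12 and 17 without a peak, which limits any ordering of single transcripts.

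The authors class lncRNAs by their place relative to coding genes. Of the regions, 549 (55.2%) were in transcripts that overlap a coding exon on the same strand, 252 (25.4%) in intergenic, 81 (8.15%) in intronic antisense, 52 (5.23%) in intron sense-overlapping, 47 (4.73%) in natural antisense and 13 (1.31%) in bidirectional transcripts. Reads of exon sense-overlapping transcripts cannot be told apart from those of the coding gene. As a share of the expressed transcripts, intergenic ones had a region in 2.83%, intronic antisense ones in 2.51% and exon sense-overlapping ones in 1.43%. Median lower folds were 10.1 in intergenic, 9.66 in intronic antisense and 7.05 in exon sense-overlapping transcripts.

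The highest lncRNA levels with a region belonged to RNAs of the signal recognition particle. RN7SL2 had 258753 and 232500 CPM per kb with low folds of 4.2 and 3.89, and RN7SL3 had 21664 and 20003 CPM per kb with folds of 10.1 and 9.33. Both have near-identical copies in the genome that can share their reads, and RN7SL5P and RN7SL4P had no peak at 10936 to 32483 CPM per kb. RN7SKP203, a copy of another polymerase III RNA, had 1041 and 1161 CPM per kb with folds of 21.95 and 16.8. The other 7 were AC016739.1, AC004453.1, NPM1P27, AC103702.2, SARS, AC245041.2 and RF00019. RF00019, the name of the Y RNA family, was given to 6 regions in 6 transcripts, with lower folds of 4.41 to 56.6. NORAD, an abundant cytoplasmic lncRNA, had 3438 and 3461 CPM per kb and no peak, and MTATP6P1, HMGB1P6 and TMSB4XP8 were also without one. So were AL136313.1, RPS2P46, MTND2P28 and RPL10P9.

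Families of lncRNA are set beside the 1.72% of all expressed transcripts with a region. Ribosomal protein pseudogenes had a region in 17 of 250 expressed transcripts (6.80%), while none of the 82 cytosolic ribosomal protein genes had. RPL12P4 had folds of 54.7 and 34.2 at 24.5 and 22.7 CPM per kb, and RPL13AP7 had 94.5 and 66.5 with 2 and 4 input reads. RPL7P23 had 11.8 and 19.1 at 112 and 119 CPM per kb. Reads of such copies may come from the parent gene, so their levels and folds are uncertain. Copies named RN7SL had a region in 9 of 156 (5.77%). Transcripts with LINC names had 11 of 597 (1.84%) and those with antisense names 16 of 941 (1.70%), both near the share of all transcripts. Of the smaller families, small nucleolar RNA host genes had 1 of 41 (2.44%), mitochondrial pseudogenes 1 of 40 (2.5%) and miRNA host genes 0 of 65. Counts this small do not set these families apart from all transcripts. LINC01128 had the highest level of the LINC transcripts with a region, 23.4 and 26.5 CPM per kb.

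Part of the control landscape was also listed after TRMT61A knockdown. Of the mRNA regions, 46.6% overlapped peaks in both knockdown lists, 28.6% in 1 and 24.8% in neither. Of the lncRNA regions, 40.9% overlapped peaks in both, 29.8% in 1 and 29.3% in neither. Peaks in 1 control list only overlapped peaks in both knockdown lists in 6.36% of cases in mRNA list 1 and 9.08% in mRNA list 2. Among mRNA regions, those at a gene start were in both knockdown lists in 55.0% of cases, against 36.4% of those away from it. The start regions were also longer, with a median of 312 bases against 219, and a longer region overlaps a peak more easily. Their median lower fold was 7.63 against 6.36. The part of length or fold in this was not tested. Near tRNA genes 18 of 21 mRNA and 34 of 37 lncRNA regions were in both knockdown lists. The control and knockdown lists differ in length, with 2829 mRNA regions in both control lists and 1975 in both knockdown lists, so these overlaps describe the control regions and are no measure of change.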

How the data were processed

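Per the labels' protocols, total RNA was depleted of ribosomal RNA and then enriched with an m1A antibody. The submitters' processing notes list build hg38, STAR, HISAT2 2.0.4, edgeR and HTSeq 0.9.1 without saying which step used which. The mRNA table (genes) and the lncRNA table (transcripts) hold raw counts of the inputs, as deposited by the authors. Peaks were listed per sample, and per the file headers each has the authors' fold enrichment (a linear ratio) and a score, 10 times the negative log10 of p. No listed peak was below a fold of 2 or a score of 50. Peak and RNA lengths in bases are further values deposited by the authors. Normalized values in 8 other columns were left aside, and counts of the enriched libraries were not analysed here.

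CPM was computed from the total of each table. Division by length, planned for both classes, was made for lncRNA only, because no mRNA length was given. For 13 repeated gene names the row with more control counts was kept. Positions of starts and of small RNA genes are those of RefSeq, GRCh38.p14, whose coordinates equal those of hg38. No test was run, since regions were described within 2 control samples and genes are not replicates. The members, families and rules were chosen with earlier results of these data known. Named were the 10 regions of highest lower fold and the 10 highest inputs with a region and without a peak in each class, the 10 genes with most regions (with ties), and up to 4 members with and 4 without a region per family. A result that this rule would name is not reported here. The region finder was tested on simulated data. Tools were Python 3.11.15, pandas 2.3.3, numpy 2.4.6 and R 4.3.3, with edgeR 4.0.16 and DESeq2 1.42.0 for library sizes only.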

Additional observations from a re-analysis of the deposited data

How the results depend on the processing

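The numbers of regions kept within 1.5 times of the reported ones under stricter overlap (at least 50% of both peaks), a score of at least 100 and a fold of at least 4. The shares of expressed genes and transcripts with a region moved by less than the spread between lists under these, with a peak anywhere in the gene in both lists, with edgeR or DESeq2 library sizes, and with other expression limits. The share of regions in both knockdown lists moved under 1 of the limits, to 55.7% in mRNA and 49.8% in lncRNA, at a score of at least 100. With 1 control list alone, mRNA had 4319 to 6701 regions in 26.4% to 37.3% of expressed genes, and lncRNA 1696 to 2588 in 2.73% to 4.35% of transcripts, since recurrence was then not required.

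The mRNA difference in median log2 CPM per gene stayed above 0, with 0.99 for the stricter overlap, 1.02 for the score limit, 0.91 for the fold limit, 0.88 for a peak anywhere in the gene, 0.59 at 5 CPM, 2.01 with no filter, and 0.68 to 0.72 with 1 control replicate. The lncRNA difference per kb had no stable sign. It was -0.0036 for the score limit, -0.021 for the fold limit, -0.10 at 5 CPM, -0.13 to -0.084 with 1 control replicate, 0.20 with no filter and 0.44 without division by length. The cause was not tested. Of 39 mRNA families, 27 stayed on the same side of the share of all expressed genes under each alternative run, and of 7 lncRNA families 3 did. An mRNA level per length was not run. No paired analysis was possible because no result comes from a test between groups. The lncRNA inputs hold about 2 reads per CPM, and the depth of the enriched libraries is unknown here.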
